A study of Mus musculus with 10 samples.

Results

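A set of 35 genes was low on the array of splenic macrophages and at least 2 times as bright on every other array of a mouse macrophage atlas. The members were chosen from the authors' series values, which are linear signals, as probes with 1 gene symbol whose splenic value was at most 0.5 times the lowest of the other 9 arrays. The probe also had to be detected on all 9 of those arrays, with a detection p-value under 0.01, and where several probes of a gene qualified the brightest stood for it. Of 5238 named genes with a probe detected on all 9 other arrays, and 17711 named genes on the array, these 35 were kept, and 2 further genes that met the rule are left out here. Because the splenic array chose the members, their splenic levels are given as a description, with no test. Lyz2, the lysozyme of macrophages, is the member with the second lowest ratio.

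The study compared untreated macrophages of 6 tissues with bone marrow-derived macrophages (BMDM), all from male C57BL/6 mice of 8 to 10 weeks, on 10 Illumina bead arrays. Splenic red pulp macrophages, alveolar macrophages of the lung, Kupffer cells of the liver and BMDM had 1 array each, and 2 arrays each were made for macrophages of the peritoneal cavity, the small intestine and adipose tissue. BMDM had been grown from bone marrow for 7 days in M-CSF, the growth factor of macrophages, so they are the group that matured in culture. Nothing in the labels ties paired arrays to different animals, so every p-value here rests on a spread between arrays that could be technical. A group with 1 array was taken to vary as much as the 3 replicated groups, and precision is limited by the number of arrays.

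The splenic array carried the genes that define red pulp macrophages. Spic, the transcription factor on which these cells depend, stood at 12.09 (normalized signal, log2) in splenic macrophages, against 4.55 to 8.68 on the 9 other arrays. Vcam1, an adhesion molecule, stood at 15.05 in splenic macrophages, against 5.16 to 13.78 on the others, and Slc40a1, the iron exporter ferroportin, at 15.31, against 4.80 to 15.19. The general macrophage genes Adgre1 (13.99, against 12.08 to 14.09) and Mertk (14.34, against 9.79 to 12.95) were bright there too. Fcgr1, another general macrophage gene, lay inside the range of the other arrays (10.18, against 8.10 to 11.70). The share of probes detected was 23.2% on the splenic array and between 22.6% and 26.4% over all 10. The median raw signal separated a dimmer set of 5 arrays (splenic, peritoneal replicate 1, alveolar, Kupffer and BMDM, 89.83 to 107.9) and a brighter set of 5 (135.7 to 166.5), so splenic macrophages shared the dimmer set with 4 other arrays. Markers of other cells were also present. The summed linear signal of 13 erythroid genes was 59235 on the splenic array, against 548 to 17304 on the others, and 12 of the 13 were detected there. For 10 B cell genes the sum was 29832, against 1195 to 50187, and for 12 T and NK cell genes it was 2434, against 1692 to 7014. The part of such cells in the levels described here was not tested, and in bulk RNA fewer cells of a type and less RNA per cell cannot be told apart.

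As background, red pulp macrophages clear aged red blood cells and return their iron to the blood, and they arise largely before birth and maintain themselves with little input from monocytes. Lysozyme M is made by most macrophages, monocytes and neutrophils, and its promoter drives the Lyz2-Cre allele that is widely used to delete genes in myeloid cells. Vimentin, tropomyosins and class I myosins build and move the cytoskeleton, and TREM2 and the Fc receptors read lipids and immune complexes at the cell surface.

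Promoter windows were read for motifs of factors that act in macrophages, and 4 of them are shown so that the matches can be seen in place. RefSeq windows (GRCm38.p6) of 300 bases, from 250 before to 50 after a transcript's start, were found for 27 of the 35 genes, 33 windows in all. The motifs searched on both strands were TTGCNNAA for C/EBP factors, GAGGAAGT for PU.1, TGANTCA for AP-1 and CACGTG, the E-box that many basic helix-loop-helix factors bind. The 4 motifs do not contain each other. Printed 5′ to 3′ on the gene's own strand, with matches in capitals, is a window each of Dab2, Lyz2, Trem2 and Nostrin. Of these 4 windows 3 hold a match and that of Lyz2 none.
Dab2 (chr15:6299539-6299838, plus strand): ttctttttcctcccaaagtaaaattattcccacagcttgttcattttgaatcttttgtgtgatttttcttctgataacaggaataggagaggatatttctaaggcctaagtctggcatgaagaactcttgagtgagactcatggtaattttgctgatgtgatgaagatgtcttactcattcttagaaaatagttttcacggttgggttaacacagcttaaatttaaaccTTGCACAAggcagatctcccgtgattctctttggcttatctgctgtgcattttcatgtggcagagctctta
Lyz2 (chr10:117282223-117282522, minus strand): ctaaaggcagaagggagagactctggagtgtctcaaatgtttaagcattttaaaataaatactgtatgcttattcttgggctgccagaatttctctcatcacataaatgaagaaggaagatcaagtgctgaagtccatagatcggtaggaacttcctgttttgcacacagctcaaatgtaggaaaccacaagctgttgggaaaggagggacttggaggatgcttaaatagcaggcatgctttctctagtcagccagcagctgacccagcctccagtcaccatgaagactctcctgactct
Trem2 (chr17:48346151-48346450, plus strand): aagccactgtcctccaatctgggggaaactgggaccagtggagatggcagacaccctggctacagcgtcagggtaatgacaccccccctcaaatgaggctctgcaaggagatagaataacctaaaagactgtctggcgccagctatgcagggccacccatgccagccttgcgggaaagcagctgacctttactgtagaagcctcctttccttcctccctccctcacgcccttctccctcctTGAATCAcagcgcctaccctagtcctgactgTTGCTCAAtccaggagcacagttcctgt
Nostrin (chr2:69135550-69135849, plus strand): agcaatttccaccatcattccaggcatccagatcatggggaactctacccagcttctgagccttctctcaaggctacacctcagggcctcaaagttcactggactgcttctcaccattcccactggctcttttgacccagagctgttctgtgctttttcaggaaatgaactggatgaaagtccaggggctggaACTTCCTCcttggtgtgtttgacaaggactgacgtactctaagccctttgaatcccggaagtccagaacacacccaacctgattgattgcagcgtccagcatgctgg
The printed window of Dab2 holds a C/EBP match at position -20 relative to the start, that of Trem2 an AP-1 match at -8 and a C/EBP match at 23, and that of Nostrin a PU.1 match at -56. Dab2 has another window (chr15:6386498-6386797), not printed, which holds none of the 4 motifs. C/EBP letters were found in 6.06% of the 33 windows, against 10.8% of all 32851 windows of the table, and PU.1 letters in 3.03%, against 3.2%. AP-1 letters were found in 3.03%, against 7.81% of all windows, and the E-box in 6.06%, against 7.15%, with Smpdl3b and Nupr1 as its 2 genes. None of the 4 motifs was more frequent in these windows than among all promoters.

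Lyz2 was bright on every array but the splenic one. Its level was 10.26 in splenic macrophages, against 15.16 and 14.40 in peritoneal, 15.33 in alveolar, 14.15 and 14.28 in intestinal and 15.06 and 15.07 in adipose macrophages, 14.77 in Kupffer cells and 15.23 in BMDM. The splenic array lay below every other array, 24.9-fold under the mean of the 6 groups, yet Lyz2 was still detected there. In the authors' linear values the splenic signal was 1050, against 14890 to 36294 on the 9 other arrays. A second Lyz2 probe, which was detected on 8 of the 9 other arrays and not on the splenic one, read 4.66 in splenic macrophages, against 6.11 to 11.50 on the others. The remaining Lyz2 probe was detected on 0 of the 9 other arrays and read 4.69 in splenic macrophages, against 4.57 to 4.70, so it carries no level to compare. Among the other 6 groups Lyz2 varied by 1.12 on the log2 scale, which did not pass the test for any difference (limma F test, Benjamini-Hochberg adjusted p = 0.0583). Lyz1, the closely related lysozyme and no member, was undetected in splenic macrophages (4.93) and ranged from 5.26 to 13.48 on the other arrays. The 2 genes are similar in sequence, and how far each probe reads the other's transcript was not tested.

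**Figure D1:**
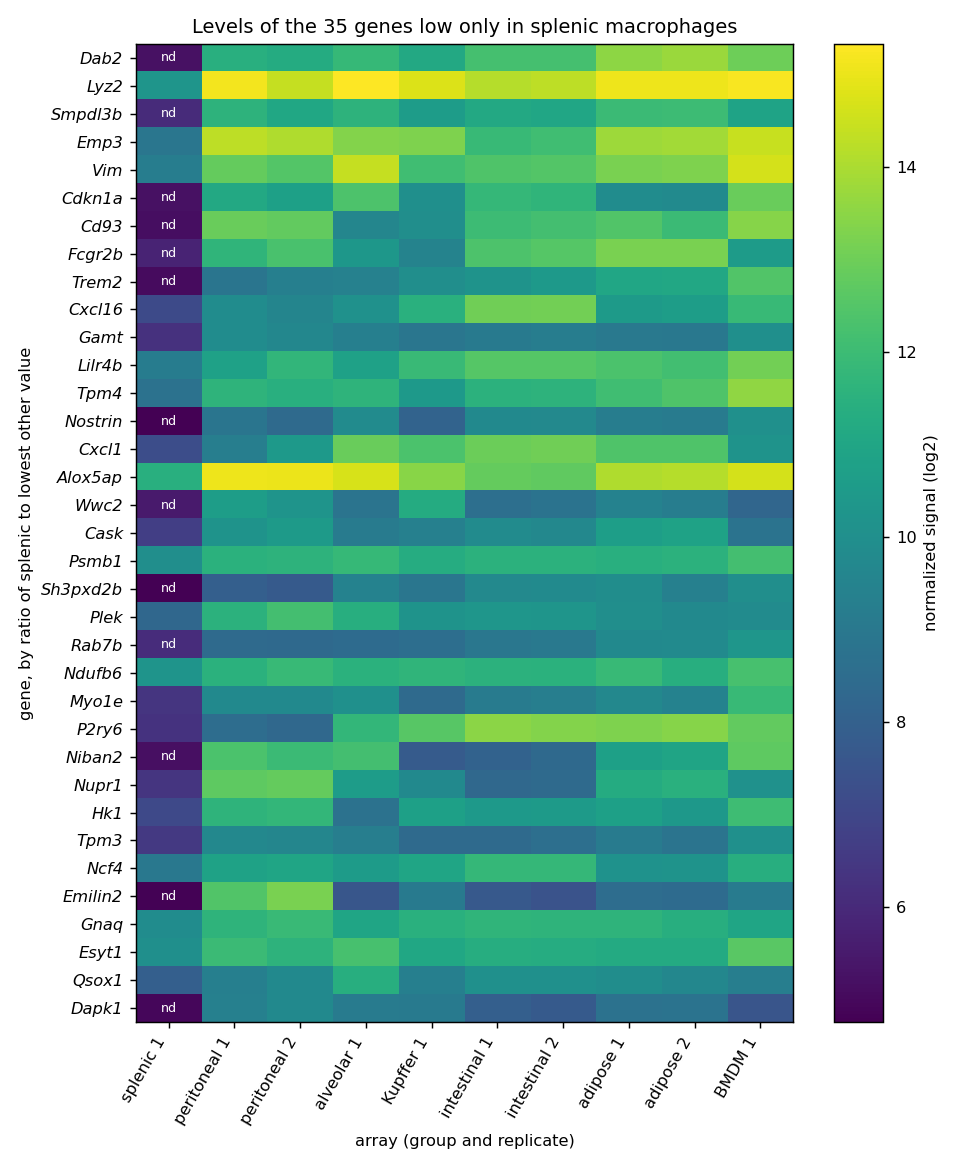
Normalized signal (log2, colour) of the 35 genes (vertical axis, ordered by the ratio of the splenic to the lowest other value, lowest at the top) on the 10 arrays (horizontal axis, splenic array at the left). The splenic column is the darkest in every line, and "nd" marks the 13 genes not detected there.

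On the splenic array 22 of the 35 genes were detected and 13 were not. For those 13 only a bound can be given, computed against the lowest signal among detected probes of that array, and their folds are written with "at least". Folds below compare the splenic level with the equally weighted mean of the 6 other groups on the log2 scale.

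The gene with the lowest ratio was Dab2, an adaptor of clathrin-mediated endocytosis. Its level was 5.23 in splenic macrophages, against 11.44 and 11.28 in peritoneal, 11.83 in alveolar, 12.20 and 12.21 in intestinal and 13.55 and 13.73 in adipose macrophages, 11.12 in Kupffer cells and 13.01 in BMDM. Set against the mean of the other groups, splenic macrophages were at least 62.1-fold lower, and they were at least 29.5-fold lower than Kupffer cells, the next lowest group. Dab2 was not detected on the splenic array. Its second probe was also below 0.5 times the lowest other array (ratio 0.443).

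Several members are receptors or surface proteins. Cd93, a lectin-like transmembrane protein, stood at 5.16 in splenic macrophages, against 12.86 ± 0.09 in peritoneal, 9.61 in alveolar, 12.09 ± 0.13 in intestinal and 12.21 ± 0.33 in adipose macrophages (SD, n = 2 each), 9.99 in Kupffer cells and 13.41 in BMDM. It was not detected in the spleen, which was at least 43.9-fold lower, and the other arrays fell into a bright group and a dim pair, alveolar macrophages and Kupffer cells. Fcgr2b, the inhibitory Fc receptor for IgG, stood at 5.80 in splenic macrophages, against 11.69 and 12.30 in peritoneal, 10.34 in alveolar, 12.38 and 12.53 in intestinal and 13.22 and 13.20 in adipose macrophages, 9.48 in Kupffer cells and 10.57 in BMDM. Splenic macrophages were at least 34.3-fold lower, and both adipose arrays were the brightest. Trem2, a lipid-sensing receptor known from microglia and lipid-associated macrophages, stood at 5.07 in splenic macrophages, against 9.10 ± 0.32 in peritoneal, 9.42 in alveolar, 10.31 ± 0.18 in intestinal and 11.06 ± 0.07 in adipose macrophages (SD, n = 2 each), 10.00 in Kupffer cells and 12.48 in BMDM. It was not detected in the spleen (at least 17.8-fold lower), and the peritoneal arrays were the dimmest of those that detected it.

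P2ry6, the receptor for extracellular UDP, had the widest span of these receptors. Its level was 6.29 in splenic macrophages, against 8.53 and 8.32 in peritoneal, 11.74 in alveolar, 13.51 and 13.38 in intestinal and 13.31 and 13.40 in adipose macrophages, 12.58 in Kupffer cells and 12.78 in BMDM. It was detected on the splenic array, close to the lowest detected signal there (6.24). P2ry6 was 54.2-fold lower there than the mean of the groups, but only 4.38-fold lower than peritoneal macrophages, so 2 groups were far below the rest. Another P2ry6 probe, detected on 6 of the 9 other arrays and not on the splenic one, gave a ratio of 1.00. Lilr4b, a surface receptor of the immunoglobulin family, stood at 9.19 in splenic macrophages, against 10.80 to 13.08 on the 9 other arrays. Smpdl3b, a membrane-anchored phosphodiesterase related to acid sphingomyelinase, stood at 6.04 in splenic macrophages, against 11.60 and 11.05 in peritoneal, 11.59 in alveolar, 11.15 and 11.02 in intestinal and 11.95 and 12.01 in adipose macrophages, 10.59 in Kupffer cells and 10.91 in BMDM. It was not detected in the spleen, and the 9 other arrays lay close together, at least 32.2-fold higher in the mean.

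Secreted signals were represented by 2 chemokines and by a gene of leukotriene synthesis. Cxcl16, which is both a chemokine and a scavenger receptor for oxidized lipoproteins, stood at 7.12 in splenic macrophages, against 9.91 and 9.59 in peritoneal, 10.11 in alveolar, 13.03 and 13.09 in intestinal and 10.53 and 10.63 in adipose macrophages, 11.46 in Kupffer cells and 11.89 in BMDM. The splenic array was 16.2-fold lower than the mean, and the intestinal arrays were the highest. Cxcl1, a chemokine that attracts neutrophils, stood at 7.25 in splenic macrophages, against 9.27 and 10.50 in peritoneal, 12.93 in alveolar, 12.97 and 13.06 in intestinal and 12.44 and 12.42 in adipose macrophages, 12.34 in Kupffer cells and 10.20 in BMDM. Here the spleen was 23.4-fold lower, and peritoneal macrophages and BMDM were also dim, with an SD of 0.87 (n = 2) between the peritoneal arrays. Alox5ap, the protein that presents arachidonic acid to 5-lipoxygenase, stood at 11.43 in splenic macrophages, against 15.06 and 15.04 in peritoneal, 14.71 in alveolar, 12.84 and 12.77 in intestinal and 14.08 and 14.15 in adipose macrophages, 13.47 in Kupffer cells and 14.65 in BMDM. It remained bright in the spleen at 6.52-fold below the mean of the groups.

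**Figure D2:**
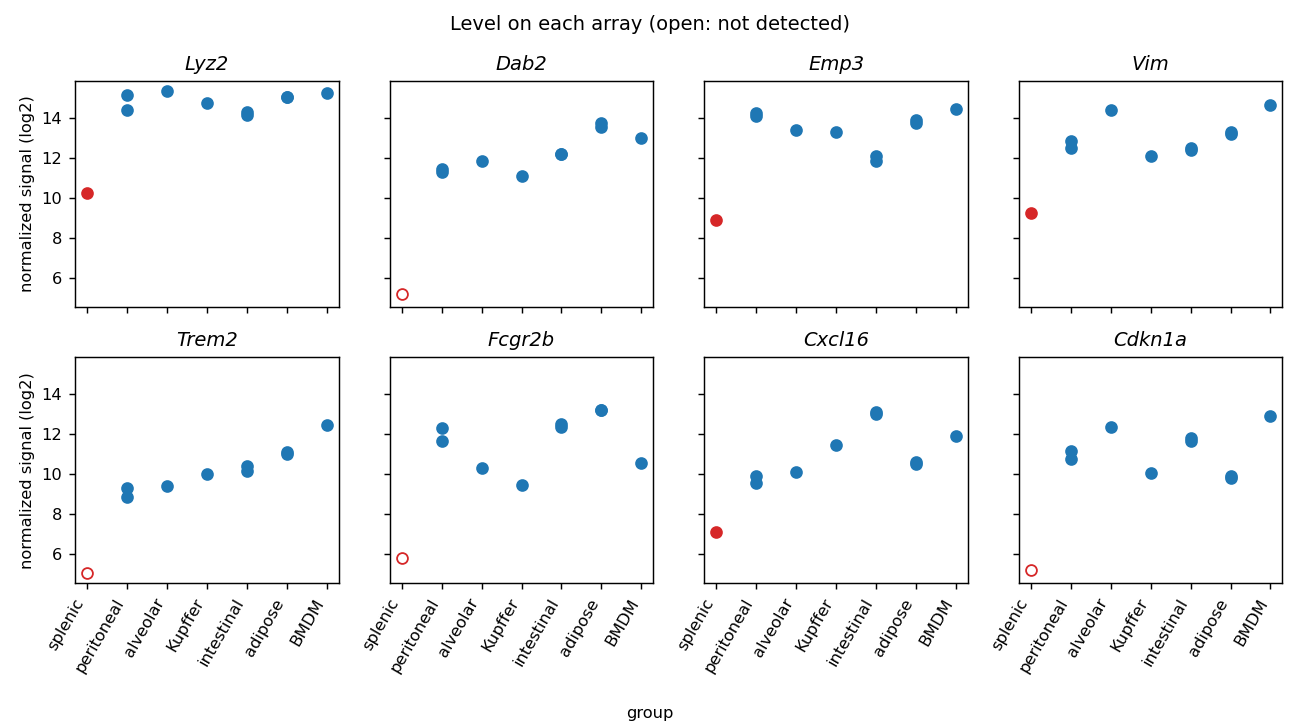
Normalized signal (log2, vertical axis) of 8 of the 35 genes in the 7 groups (horizontal axis, splenic group at the left in red), 1 point per array, with an open point where the gene was not detected. The splenic point is the lowest in each panel, between 5.07 for Trem2 and 10.26 for Lyz2, and the order of the other groups differs between genes.

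Of the 35 members 5 stood on the actin cytoskeleton list: Vim, Myo1e, Tpm3, Tpm4 and Plek. Vim, the intermediate filament protein vimentin, stood at 9.24 in splenic macrophages, against 12.84 and 12.51 in peritoneal, 14.41 in alveolar, 12.41 and 12.51 in intestinal and 13.21 and 13.28 in adipose macrophages, 12.09 in Kupffer cells and 14.65 in BMDM. Splenic macrophages were 16.2-fold lower than the mean, with alveolar macrophages and BMDM at the top. Tpm4, a tropomyosin that coats actin filaments, stood at 8.75 in splenic macrophages, against 11.64 and 11.45 in peritoneal, 11.62 in alveolar, 11.57 and 11.59 in intestinal and 12.10 and 12.40 in adipose macrophages, 10.42 in Kupffer cells and 13.60 in BMDM. It was 8.46-fold lower in the spleen, and Kupffer cells were the next lowest. Myo1e, a class I myosin that links membranes to actin, stood at 6.38 in splenic macrophages, against 9.80 and 9.76 in peritoneal, 10.07 in alveolar, 9.15 and 9.29 in intestinal and 9.68 and 9.45 in adipose macrophages, 8.43 in Kupffer cells and 11.88 in BMDM, which put the spleen 10.9-fold below the mean and BMDM above all other arrays.

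Plek, the protein kinase C substrate pleckstrin, stood at 8.28 in splenic macrophages, against 9.79 to 12.16 on the 9 other arrays. Sh3pxd2b, a scaffold of podosomes (the adhesive feet of macrophages), was not detected in the spleen and stood at 4.76 in splenic macrophages, against 7.76 to 9.99 on the 9 other arrays. Tpm3, another tropomyosin, stood at 6.52 in splenic macrophages, against 8.40 to 10.05 on the 9 other arrays on the probe that met the rule. This call depends on the probe: 3 brighter Tpm3 probes gave ratios of 2.75, 2.35 and 0.908 of the splenic to the lowest other value, so none of them met the rule. On the third of these probes the splenic array was still the lowest, at 10.58, against 10.72 to 11.50 on the 9 other arrays. Emp3, a small tetraspan membrane protein, stood at 8.90 in splenic macrophages, against 14.27 and 14.09 in peritoneal, 13.39 in alveolar, 11.87 and 12.09 in intestinal and 13.77 and 13.89 in adipose macrophages, 13.29 in Kupffer cells and 14.46 in BMDM. It was 24.6-fold lower in the spleen, and its second probe met the same ratio (0.136).

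Genes of growth control and signalling followed. Cdkn1a, the cell cycle inhibitor p21, stood at 5.24 in splenic macrophages, against 11.15 and 10.76 in peritoneal, 12.38 in alveolar, 11.81 and 11.67 in intestinal and 9.92 and 9.81 in adipose macrophages, 10.04 in Kupffer cells and 12.93 in BMDM. It was undetected in the spleen (at least 33.8-fold lower) and brightest in BMDM, and its second probe gave a ratio of 0.203. Niban2, a membrane-associated protein linked to cell survival, stood at 5.21 in splenic macrophages, against 12.33 and 11.96 in peritoneal, 12.18 in alveolar, 8.10 and 8.39 in intestinal and 10.76 and 10.93 in adipose macrophages, 7.81 in Kupffer cells and 12.69 in BMDM. The spleen was again undetected, but Kupffer cells and the intestinal arrays were far below the remaining arrays, and the bound against Kupffer cells alone was at least 2.97-fold. Wwc2, a scaffold of the Hippo pathway, was undetected in the spleen and stood at 5.51 in splenic macrophages, against 8.27 to 11.26 on the 9 other arrays, and a brighter Wwc2 probe gave a ratio of 0.526, just outside the rule. Cask, a membrane-associated guanylate kinase, stood at 6.71 in splenic macrophages, against 8.77 to 10.85 on the 9 other arrays.

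The stress-induced nuclear protein Nupr1, the matrix glycoprotein Emilin2 and the G protein subunit Gnaq lie outside the rule for named genes and are given to account for every member. Nupr1 stood at 6.37 in splenic macrophages, against 8.33 to 12.84 on the 9 other arrays, Emilin2, which was undetected in the spleen, at 4.84 in splenic macrophages, against 7.48 to 13.21 on the 9 other arrays, and Gnaq at 9.91 in splenic macrophages, against 10.96 to 11.91 on the 9 other arrays. Gnaq was thus low by little, and 2 other Gnaq probes gave ratios of 1.41 and 0.859. Dapk1, a kinase of cell death pathways, was undetected in the spleen and stood at 4.94 in splenic macrophages, against 7.54 to 9.79 on the 9 other arrays.

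The remaining members serve metabolism, protein turnover and traffic inside the cell. Hk1, a hexokinase that starts glycolysis, stood at 7.08 in splenic macrophages, against 11.64 and 11.76 in peritoneal, 8.73 in alveolar, 10.50 and 10.52 in intestinal and 10.75 and 10.40 in adipose macrophages, 10.79 in Kupffer cells and 12.04 in BMDM. The spleen was 12.5-fold lower than the mean, and alveolar macrophages were the next lowest. Gamt, which completes creatine synthesis, stood at 6.25 in splenic macrophages, against 8.92 to 10.03 on the 9 other arrays, Ndufb6, a subunit of respiratory complex I, at 10.22 in splenic macrophages, against 11.41 to 12.26 on the 9 other arrays, and Psmb1, a proteasome subunit, at 10.00 in splenic macrophages, against 11.29 to 12.19 on the 9 other arrays. The last 2 genes were low by only 2.84-fold and 3.13-fold, while the 6 other group means lay within 0.74 and 0.90 of each other on the log2 scale.

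Nostrin, which traffics nitric oxide synthase, was undetected in the spleen and stood at 4.80 in splenic macrophages, against 8.12 to 10.08 on the 9 other arrays. Rab7b, a GTPase of late endosomes, was undetected as well and stood at 6.09 in splenic macrophages, against 8.36 to 10.31 on the 9 other arrays. Ncf4, the p40phox subunit of the NADPH oxidase, stood at 8.98 in splenic macrophages, against 10.15 to 11.82 on the 9 other arrays. Esyt1, a tether between endoplasmic reticulum and plasma membrane, stood at 10.03 in splenic macrophages, against 11.07 to 12.63 on the 9 other arrays, and Qsox1, a disulphide-forming oxidase, at 7.95 in splenic macrophages, against 9.28 to 11.41 on the 9 other arrays. Splenic macrophages were 3.97-fold, 3.21-fold and 3.88-fold below the mean of the groups in the last 3 of these genes.

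Near the threshold of the rule the members shaded into other genes. Esyt1 (ratio 0.499), Qsox1 (0.499) and Dapk1 (0.4998) lay just inside, and Retreg1, a receptor of endoplasmic reticulum turnover (0.506), Psmb7, a proteasome subunit (0.509), and Socs3, a brake on cytokine signalling (0.512), just outside. The rule also had partners in every other group. Among groups with 1 array, it found 60 genes low only in alveolar macrophages, 5 in Kupffer cells and 84 in BMDM, so the splenic count of 35 is neither the largest nor the smallest of these. Groups with 2 arrays had to meet the rule on both, which is stricter. It found 31 genes low only in peritoneal macrophages and 15 each in intestinal and adipose macrophages. Turned to high values, it found 137 genes that were high only in splenic macrophages, 168 in alveolar macrophages, 84 in Kupffer cells and 216 in BMDM. For the groups with 2 arrays it found 111 in peritoneal, 91 in intestinal and 66 in adipose macrophages. The number also rests on which arrays are compared: without the Kupffer array 70 genes met the rule and without the alveolar array 55, all 35 members among them each time. For the 35 genes the array carried 40 further probes, of which 16 were detected on all 9 other arrays; the splenic array was the lowest in 13 of those and at most 0.5 times the lowest in 3, those of Cdkn1a, Dab2 and Emp3.

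The splenic mean did not enter the next comparisons, which ask how the 35 genes vary among the 6 other groups. The rule did use the other 9 arrays, through their lowest value and through detection on each. The background shares carry no condition on the lowest value, so members and background were not chosen alike. The splenic array also entered the normalization. Of the 35 genes 33 differed (94.3%, limma F test, adjusted p under 0.05), with Lyz2 and Ndufb6 as the exceptions. Of all 12845 tested transcripts 76.5% differed, and 72.4% of the 6588 detected on all 9 of these arrays. The members were therefore more often different than that background, but their probes also gave a brighter signal, with a median of 11.14 against 9.25 (log2). The range between the lowest and the highest group mean had a median of 2.28 for the members, from 0.74 in Ndufb6 to 5.25 in Emilin2, against 1.27 for the 6588 transcripts. The brighter array set holds peritoneal replicate 2 and the intestinal and adipose arrays. It has no alveolar, Kupffer or BMDM array, so a test on it does not cover those groups. On the 5 arrays of the brighter set alone, 29 of the 35 differed, against 64.2% of all transcripts.

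BMDM were the group in which most of the 35 genes were high. BMDM had the highest mean of the 6 groups for 18 genes (51.4%, against 25.4% of the 6588 transcripts). Against the mean of the 5 other tissues, 22 of the 35 were higher in BMDM (62.9%) and 8 were lower (22.9%), against a background of 21.9% higher and 28.9% lower among all tested transcripts (23% and 24.6% of those detected on all 9 other arrays). The median difference of the members was 0.86 on the log2 scale, against -0.12 for all tested transcripts and 0.01 for those detected on all 9 arrays. Trem2 differed by 2.50 ± 0.22 (SE, adjusted p = 0.000157), Myo1e by 2.47 ± 0.17 (adjusted p = 6.78e-05) and Niban2 by 2.44 ± 0.21 (adjusted p = 0.000149). Of the actin cytoskeleton members, Tpm4 (2.11 ± 0.18), Vim (1.67 ± 0.18) and Tpm3 (1.08 ± 0.19) were higher like Myo1e, and Plek was lower (-0.84 ± 0.24). On the brighter Tpm3 probes BMDM stood at 11.87 and 13.18, above all other arrays, and at 10.82, inside their range. On further Tpm4 probes detected on all 9 other arrays BMDM stood at 11.68, the highest, and at 8.31, inside the range. Cd93 (2.05 ± 0.21), Cdkn1a (1.94 ± 0.19), Hk1 (1.58 ± 0.18) and Rab7b (1.46 ± 0.16) were also higher.

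Genes that were lower in BMDM than in the 5 tissues were led by Cxcl1, at -1.92 ± 0.38 (adjusted p = 0.00549), Wwc2, at -1.45 ± 0.20 (adjusted p = 0.00129), and Dapk1, at -1.35 ± 0.20 (adjusted p = 0.00165). Cask (-1.11 ± 0.19), Fcgr2b (-0.93 ± 0.23), Plek, Qsox1 (-0.75 ± 0.21) and Nupr1 (-0.48 ± 0.17) made up the 8. Lyz2 did not pass, at 0.39 ± 0.27 (adjusted p = 0.254), nor did Smpdl3b, at -0.41 ± 0.22 (adjusted p = 0.165). Within the dimmer array set 29 of the 30 called genes had the same sign, and Fcgr2b was the exception (0.06). These arrays also made the calls, so the signs are no separate check. With arrays scaled to a common median instead, 11 were higher and 4 lower, against 8.6% and 19.1% of all transcripts, and 25 of the 35 lay above the median of all transcripts, as with the quantile scaling. Without intestinal replicate 1 or adipose replicate 1, 5 were lower.

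**Figure D3:**
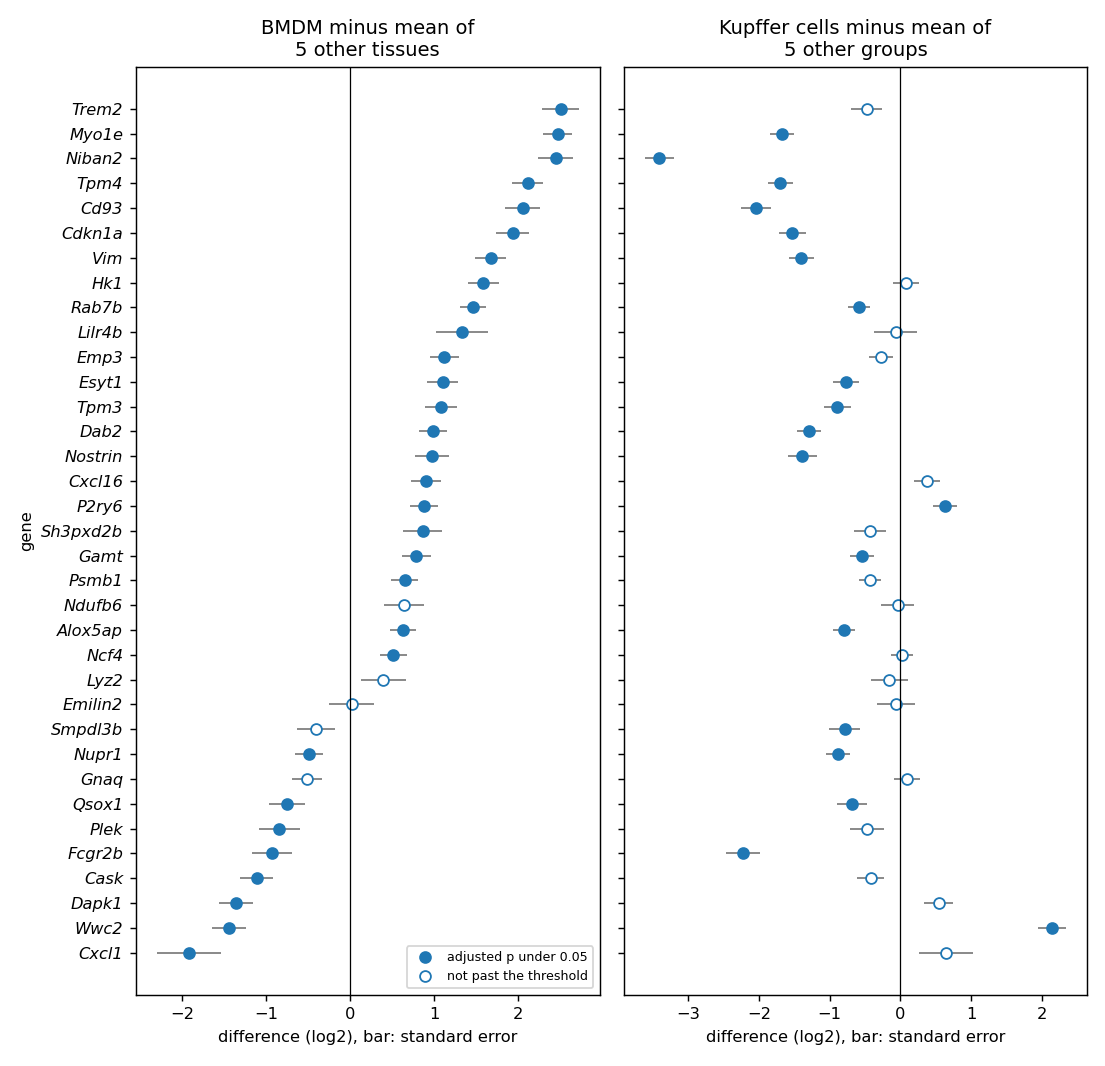
Differences (log2, horizontal axis, bars are standard errors from limma) of the 35 genes (vertical axis) in BMDM against the mean of 5 other tissues (left) and in Kupffer cells against the mean of 5 other groups (right), with filled points for an adjusted p under 0.05. At the left 22 filled points lie above 0 and 8 below, from 2.50 in Trem2 to -1.92 in Cxcl1, and at the right 2 lie above and 17 below, from 2.14 in Wwc2 to -3.41 in Niban2.

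Kupffer cells were the group in which the 35 genes were most often lowest after the spleen. As background, they clear red blood cells in the liver as red pulp macrophages do in the spleen. A link of that role to these levels was not tested. The Kupffer mean was the lowest of the 6 groups for 12 genes (34.3%, against 17.1% of the 6588 transcripts). The rule used the lowest of the 9 other arrays for the members, and the 6588 transcripts carry no such condition. Against the mean of the 5 other groups, 17 of the 35 were lower in Kupffer cells (48.6%) and 2 were higher (5.71%), against 17.9% lower and 16.2% higher among all tested transcripts (13.9% and 12.9% of those detected on all 9 other arrays). The median difference of the members was -0.48, against -0.09 for all transcripts. Niban2 was -3.41 ± 0.21 (SE, adjusted p = 4.27e-05), Fcgr2b -2.23 ± 0.23 (adjusted p = 0.00054) and Cd93 -2.05 ± 0.21 (adjusted p = 0.000496).

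Of the 5 actin cytoskeleton members, Tpm4 (-1.70 ± 0.18), Myo1e (-1.67 ± 0.17), Vim (-1.40 ± 0.18) and Tpm3 (-0.89 ± 0.19) were lower in Kupffer cells, and Plek did not pass the test (-0.47 ± 0.24, adjusted p = 0.17). The tropomyosin values depend on the probe. On the 3 brighter Tpm3 probes Kupffer cells stood at 10.54, 11.55 and 11.13. The other non-splenic arrays spanned 8.65 to 11.87, 9.80 to 13.18 and 10.72 to 11.50. On another Tpm4 probe Kupffer cells stood at 8.44, against 6.89 to 8.86. Also lower were Cdkn1a (-1.53 ± 0.19), Nostrin (-1.39 ± 0.20) and Dab2 (-1.29 ± 0.17). The 2 genes that were higher in Kupffer cells were Wwc2, at 2.14 ± 0.20 (adjusted p = 0.000333), and P2ry6, at 0.63 ± 0.17 (adjusted p = 0.0271). Lyz2 did not pass the test (-0.16 ± 0.27, adjusted p = 0.68), nor did Trem2 (-0.48 ± 0.22, adjusted p = 0.13) or Emp3 (-0.27 ± 0.18, adjusted p = 0.261). All 19 called genes had the same sign within the dimmer set, whose arrays also made the calls. With median scaling 16 were lower and 1 higher, against 12.1% and 4.78% of all transcripts. The count of higher genes was 5 without peritoneal replicate 1, 4 without peritoneal replicate 2, and 1 without any of the 4 intestinal and adipose arrays in turn. Both comparisons use all 6 groups, and BMDM and Kupffer cells are each part of the other's reference mean, so their values are not independent.

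Genes of the same families and pathways that are not among the 35 were then compared between splenic macrophages and the mean of the 6 other groups (limma, adjusted over all 12845 transcripts). Of 346 listed genes tested, 109 were lower and 97 higher in the spleen, and of all transcripts 20.4% were lower and 19.3% higher (19.7% and 16.5% of those detected on all 9 other arrays). The median difference of all transcripts was -0.07 (log2). The actin cytoskeleton list had 20 of 40 genes lower and 2 higher, with a median of -0.59 (-0.51 with undetected genes at their bounds). Ahnak, a giant scaffold protein beneath the membrane, was 41.8-fold lower (adjusted p = 6.75e-06), Capg, which caps actin filaments, 20.1-fold lower and Lsp1, a leukocyte actin-binding protein, 10.3-fold lower. Pdlim7, an adaptor of stress fibres, was not detected in the spleen and was at least 8.42-fold lower. Ahnak stood at 7.48 in splenic macrophages, against 14.23 and 14.63 in peritoneal, 13.71 in alveolar, 12.40 and 12.53 in intestinal and 14.57 and 14.31 in adipose macrophages, 8.39 in Kupffer cells and 13.77 in BMDM. Splenic macrophages and Kupffer cells were the 2 dimmest groups, and the 8 other arrays lay well above them.

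Of 13 annexins and S100 calcium-binding proteins, 8 were lower and 2 higher (median -1.41). S100a6 was 10.6-fold lower, and S100a10, S100a4 and Anxa1, none detected in the spleen, were at least 8.54-fold, at least 4.11-fold and at least 2.78-fold lower. Kupffer cells were dim in these genes too. S100a6 stood at 8.74 in splenic macrophages and 8.08 in Kupffer cells, and S100a10 at 4.97 and 5.86. S100a4 stood at 4.88 and 4.87, and Anxa1 at 4.63 and 4.80. The summed linear signal of the 13 genes was 16210 on the splenic array and 16367 on the Kupffer array, the lowest of the others. The 2 that were higher, S100a8 and S100a9, are also neutrophil genes. Of 37 genes of monocytes and inflammatory myeloid cells, 21 were lower and 7 higher (median -0.97, or -0.47 with bounds). Of the 21 lower genes, 10 were detected in the spleen. Emb, a partner of lactate transporters, was at least 8.26-fold lower, Hp, haptoglobin, at least 7.15-fold, Osm, a cytokine, at least 5.05-fold, and Gda, guanine deaminase, 10-fold. Of 16 glycolytic genes beside Hk1, 9 were lower and 1 higher (median -0.82, or -0.60 with bounds), among them the phosphofructokinases Pfkp (3.34-fold lower) and Pfkm (2.88-fold lower).

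Of 21 eicosanoid and lipid mediator genes beside Alox5ap, 8 were lower in the spleen and 4 higher (median -0.42, or 0 with bounds). Only 2 of the 8 lower genes were detected in the spleen. Ltc4s, which makes leukotriene C4, was 26.4-fold lower in the spleen (adjusted p = 6.27e-06). Alox5, the 5-lipoxygenase itself, was not detected and was at least 7.22-fold lower, and Cysltr1, a leukotriene receptor, was also undetected and at least 6.2-fold lower. Alox5 stood at 4.72 in splenic macrophages, against 11.12 and 11.96 in peritoneal, 10.87 in alveolar, 9.17 and 9.29 in intestinal and 10.98 and 10.79 in adipose macrophages, 5.13 in Kupffer cells and 6.89 in BMDM, so Kupffer cells were the next dimmest after the spleen. Lta4h, which makes leukotriene B4, did not pass the test (0.39 ± 0.25 on the log2 scale, adjusted p = 0.259) and was undetected in the spleen. Hpgd, which inactivates prostaglandins, was at least 11.1-fold higher.

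Of 40 other genes of the lysosomal lumen 7 were lower and 14 higher (median 0.22, or 0.16 with bounds), and of 27 genes of the lysosomal membrane and proton pump 2 were lower and 3 higher. Pla2g15, a lysosomal phospholipase, was 3.92-fold higher, and Ctsa, a carboxypeptidase, 4.59-fold lower. The tetraspanin Cd63 was 15.1-fold lower (adjusted p = 1.96e-05). With median scaling 4 lumen genes were higher and 6 lower, so the balance of that list turned with the scaling. For the membrane and proton pump genes it turned too, with 1 higher and 4 lower under median scaling, 3 higher and 5 lower on the authors' series values and 3 higher and 6 lower with array set as a block. Of 7 galectins 3 were lower, led by Lgals1 (2.47-fold lower), and 2 were called higher, of which Lgals2 was undetected in the spleen. Lgals1 stood at 10.59 in splenic macrophages, above Kupffer cells (7.75) and both peritoneal arrays (10.20 and 10.25) and below the remaining arrays. With median scaling, and on the authors' series values, 0 galectins were higher and 2 or 3 lower.

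**Figure D4:**
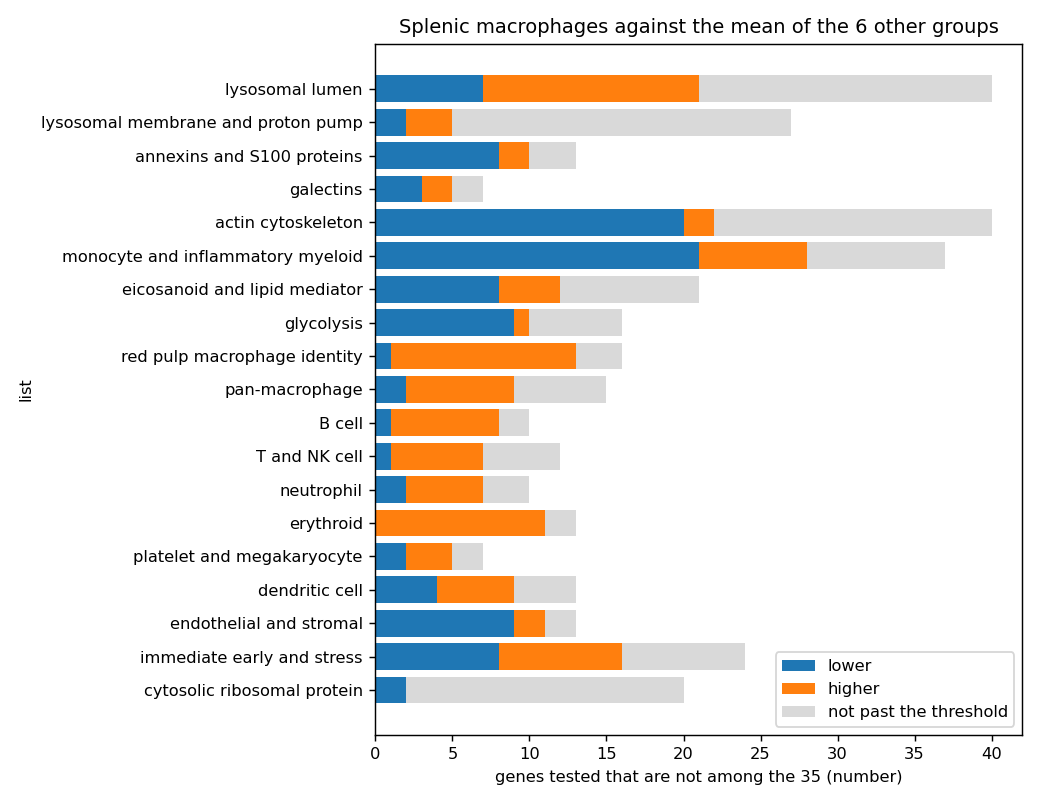
Number of listed genes (horizontal axis, the 35 left out) that were lower or higher in splenic macrophages than in the mean of the 6 other groups, or did not pass the test (limma, adjusted p under 0.05), for 19 lists (vertical axis). The actin list has 20 lower and 2 higher of 40, the red pulp list 1 lower and 12 higher of 16 and the erythroid list 0 lower and 11 higher of 13.

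Genes of red pulp identity were mostly higher in the spleen. Of 16 genes of red pulp identity 12 were higher and 1 was lower, Cd163, which was undetected there. Itgad, an integrin chain, was at least 286-fold higher, Spic at least 45.4-fold, Vcam1 at least 47.3-fold and Treml4, a receptor of the TREM family, at least 24-fold. Of 15 general macrophage genes other than Lyz2, 7 were higher and 2 lower, with Mertk 6.66-fold and Pld3, an exonuclease, 5.18-fold higher. The 2 that were lower were Itgam, the integrin chain CD11b, which was undetected in the spleen, and Spi1, which encodes PU.1 (-1.03 ± 0.26 on the log2 scale, adjusted p = 0.0199).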

How the data were processed

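Macrophages of 6 mouse tissues and BMDM were measured on 10 Illumina bead arrays. Per the labels' protocols, RNA was purified with a DNase step and amplified to biotinylated cRNA. Per the file headers, the 46632 probes of the deposited table each have a linear intensity and, beside it on every array, a detection p-value, and the arrays are not normalized to each other. The series values, also linear intensity as deposited, were made by the authors with a method not given in the sources used. All per-sample columns were used, so 0 were left out. Of the probes, 29976 carried 1 gene symbol in the platform annotation, 10 several and 16646 none.

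The 35 members came from the authors' series values and the deposited detection p-value. For the tests, neqc (limma 3.58.1 in R 4.3.3, offset 16) subtracted background estimated through the detection p-value, applied quantile normalization and took log2 of the deposited intensity. The brightest probe stood for a gene, except that members kept the probe that met the rule. The tests covered 12845 transcripts, 9171 of them named genes, each with a detection p under 0.01 on some array. A limma model with 1 mean per group had 3 residual and 4.02 prior degrees of freedom and a prior SD of 0.188, and the Benjamini-Hochberg adjustment ran over all tested transcripts, with a threshold of 0.05. It was tested on simulated data. A gene undetected on every array of a group has only a bound there, set by the lowest normalized signal among detected probes of each array, and the median of a list "with bounds" puts such genes at that bound, or at 0 where the bound leaves no difference.

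Members and gene lists were chosen with earlier results of these data known, so no list is independent evidence of its direction, and no p-value is given for the members as a set. Named genes were the 25 members with the lowest ratio, every member on a list, the 3 highest and 3 lowest called differences of each comparison, the 3 genes nearest each side of the threshold, and up to 4 listed genes per list with the largest differences past the threshold. Spi1, Cd163, S100a8, Lta4h, Lgals2, Nupr1, Emilin2 and Gnaq were added after their values were seen. The alternatives tried were other scalings and offsets, detection filters, array set or replicate number as a block, other forms of the rule, and leaving out each array. Sequences are from RefSeq (GRCm38.p6).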

Additional observations from a re-analysis of the deposited data

How the results depend on the processing

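The count of 35 genes moved with the rule. On the neqc signals, taken back from log2 to the linear scale, 101 genes met it (all 35 among them). On non-normalized signals scaled to a common median 30 genes met it, 25 of the 35 among them. The 10 members lost were Dapk1, Emilin2, Esyt1, Gnaq, Hk1, Myo1e, Niban2, Qsox1, Rab7b and Tpm3. At a ratio of at most 1 in 3 the count was 10. It was 22 with the median over all probes of a gene, and 22 when the splenic array also had to detect the gene. Leaving out each array gave 35 to 70 genes. Choosing the brightest probe before the rule, an alternative added after seeing the data, gave 33, without Tpm3 and Wwc2. The brighter array set holds no alveolar, Kupffer or BMDM array, so a test on it covers only peritoneal, intestinal and adipose macrophages. Of the 35, 29 differed on the brighter array set alone (also added after seeing the data), and 30 to 34 with each array left out. With median scaling 11 members were higher and 4 lower in BMDM, 1 was higher in Kupffer cells, and 62 listed genes were higher in the spleen (39.7% of the called, against 47.1% in the reported fit). The 15 calls that BMDM lost this way kept their direction, Dab2, P2ry6 and Fcgr2b among them; the cause was not tested. That scaling moved the median of all transcripts to -0.29 in BMDM, -0.46 in Kupffer cells and -0.28 in the spleen. With array set as a block 4 members were higher in Kupffer cells. Replicate numbers did not pair the arrays (correlations of deviations 0.05, -0.14 and -0.09); with them as a replicate block 31 members differed, 21 were higher and 7 lower in BMDM, 1 was higher and 14 lower in Kupffer cells, and 91 listed genes were higher and 105 lower. With each array left out, 21 to 24 members were higher and 5 to 10 lower in BMDM, 1 to 5 higher and 12 to 21 lower in Kupffer cells, and 84 to 117 listed genes were higher and 100 to 135 lower. Among the called members the losses were those of Nupr1, Ncf4, Plek and Qsox1 in BMDM and of P2ry6, Esyt1, Smpdl3b, Qsox1, Gamt and Rab7b in Kupffer cells. Testing only transcripts detected on all 9 other arrays left 38 listed genes higher and 61 lower, since fewer were tested. No called difference of a member in BMDM or Kupffer cells changed sign under these alternatives, while within the dimmer set alone Fcgr2b did in BMDM (0.06); signs of the single listed genes were not compared. With 1 splenic array there is no replicate of the levels that chose the genes, and 13 of the 35 lie there below the detected signals, so their size is a bound.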

Other observations

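Genes of other cell types differed in the splenic array too. Of 13 erythroid genes 11 were higher there and none was lower, with a median difference of 2.75 on the log2 scale (2.29 with bounds). Slc4a1, the anion exchanger of red blood cells, was at least 105-fold higher (limma, adjusted p = 5.05e-06), Alas2, the erythroid enzyme of haem synthesis, at least 47.2-fold, Hba-a1, a globin, at least 36.9-fold and Car2, a carbonic anhydrase, at least 9.51-fold. Slc4a1 stood at 12.83 in splenic macrophages, against 4.82 to 5.51 on the 9 other arrays, none of which came near it. Of 10 B cell genes 7 were higher and 1 lower: Cd79b, a chain of the B cell receptor complex, was 11.6-fold higher and Cd79a, its partner, at least 5.10-fold. Of 12 T and NK cell genes 6 were higher and 1 lower, with Cd3d, a chain of the T cell receptor complex, at least 3.26-fold higher. Of 10 neutrophil genes 5 were higher and 2 lower; Ltf, lactoferrin, was at least 2.16-fold higher and Mmp9, a matrix protease, 6.35-fold lower. The summed linear signal of the neutrophil genes was 2164 on the splenic array, against 777 to 8564 on the others.

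Of 13 dendritic cell genes 5 were higher and 4 lower (3 and 3 with median scaling, 3 and 4 on the authors' series values), with Irf8, a transcription factor of dendritic cells and macrophages, 3.58-fold higher. Of 7 platelet genes 3 were higher and 2 lower (2 and 2 with median scaling); Pf4, platelet factor 4, was undetected in the spleen and at least 9.88-fold lower, and Vwf, von Willebrand factor, at least 7.16-fold higher. Of 13 endothelial and stromal genes 9 were lower and 2 higher, with a median of -1.34 (-0.22 with bounds), and 1 of the 9 was detected in the spleen. The 2 that were higher, Stab2 (at least 66.1-fold), a scavenger receptor of sinusoidal endothelium, and Pecam1 (at least 13.5-fold), stood beside Flt1, a VEGF receptor that was undetected and at least 3.40-fold lower. Of 24 immediate early and stress genes 8 were lower and 8 higher (8 lower and 4 higher with median scaling), with Fos 3.56-fold higher and Fosl2, its relative, 4.57-fold lower. Of 20 ribosomal protein genes 2 were lower and none was higher, and Rplp0 was 2.54-fold lower. These values are descriptions of 1 splenic array, and their part in the levels of the 35 genes was not tested.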
